A study of Homo sapiens with 8 samples.

Results

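The genes described here encode 10 ALG enzymes, which build the sugar precursor of N-glycans on the membrane of the endoplasmic reticulum (ER). They were chosen by name, as all probe sets annotated to ALG1, ALG2, ALG3, ALG5, ALG6, ALG8, ALG9, ALG12, ALG13 or ALG14 and to no other gene, which gave 19 of 41091 probe sets and 10 of 19752 genes. A probe set is a group of short probes on the array that read the same transcript. DLD-1, a human colorectal adenocarcinoma line, was transfected with 50 nM miR-143 duplex in 4 cultures and mock transfected in 4 cultures, both with Lipofectamine 2000. RNA was taken after 24 h, and each culture was read on its own Affymetrix HG-U133 Plus 2.0 array. Mock cultures received no duplex, so the comparison is of a duplex against none and not of miR-143 against a scrambled duplex. The study used this 1 line for its arrays. All values are log2 expression values after RMA, the summary that the authors deposited, and a difference of 1 on this scale is a doubling.

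N-glycans are first assembled as a branched oligosaccharide on the lipid dolichol and then moved as a whole to asparagines of newly made proteins. Assembly starts on the cytosolic face of the ER with N-acetylglucosamine and mannose taken from soluble sugar nucleotides, and after the lipid is flipped it goes on in the lumen with mannose and glucose carried by dolichol phosphate. Sugars are added in a fixed order by ALG enzymes that each serve a defined step, and inherited loss of most of them causes congenital disorders of glycosylation.

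The sequence of the transfected microRNA is shown because its seed sets which transcripts it can pair with. RefSeq (GRCh38.p14) places the mature strands on chromosome 5, plus strand, with the 3p strand at chr5:149428978-149428998 and the 5p strand at chr5:149428944-149428965. The seed, bases 2 to 8 from the 5′ end, is in capitals. The labels name a duplex, which holds both strands.
hsa-miR-143-3p: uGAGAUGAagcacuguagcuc
hsa-miR-143-5p: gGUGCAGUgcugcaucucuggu
Sites for this seed in the ALG transcripts were not searched, since transcript sequences were not used here.

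The arrays of replicate 4 lay far from the rest in both groups. Along the leading principal component of all genes (66.9% of the variance) the miR-143 arrays lay at −18.82 to −4.4 for replicates 1 to 3 and at 25.66 for replicate 4, and the mock arrays at −10.49 to −4.25 and at 26.68. The labels give no date or batch that could be set beside this. The epithelial markers gave mean levels of 10.07 to 10.53 on miR-143 arrays and 10.21 to 10.54 on mock arrays, and 10 of 12 lay above the median of all genes, while 1 of 6 fibroblast, 0 of 4 leukocyte and 1 of 4 endothelial markers did. Among the 12 epithelial markers 11 lay lower on average with miR-143 (a negative value was found for 55.6% of all genes), their median log2 fold change was −0.035 with values from −0.32 (KRT8, a keratin) to 0.06, and limma called 0 without or with pairs. In VIL1, which encodes villin of the brush border and was singled out after its values were seen, all miR-143 arrays lay below all mock arrays. They were at 7.47 to 7.59 against 7.60 to 7.69, and such a separation was found for 1.24% of all genes. The log2 fold change of VIL1 was −0.10 (unadjusted p = 0.0871 by limma without pairs), and it did not pass after adjustment. The part of such shifts in the ALG values was not tested. HK2, the hexokinase that the study followed as a miR-143 target, averaged 10.44 ± 0.30 in miR-143 cells and 10.80 ± 0.23 in mock cells (SD, n = 4 each). Its log2 fold change was −0.36 with a standard error of 0.16 (adjusted p = 1 by limma without pairs and 0.00787 with arrays of the same replicate number as pairs). As the mean of all its probe sets it was −0.126.

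The ALG genes showed small differences between miR-143 and mock cells, and 0 of 10 passed the test. Compared by limma without pairs, with p-values adjusted over all genes by Benjamini and Hochberg, all 10 had an adjusted p of 1. Over all 19752 genes the test called 0% lower and 0% higher. The exact permutation test of single genes, whose smallest p is 0.0286, gave a p under 0.05 for 0 of 10 ALG genes. Such a p needs groups that do not overlap, so it repeats the count of separated genes at the end of this paragraph. The shares over all genes are given there. The arrays read RNA of a whole culture, so fewer expressing cells and less RNA per cell cannot be told apart. With arrays of the same replicate number compared as pairs, 0.623% of all genes were lower and 0.167% higher, and again 0 of 10 ALG genes passed, with a lowest adjusted p of 0.149 by limma for ALG2. At an unadjusted p under 0.05 without pairs, limma had 1 ALG gene, ALG14, on the lower side against 1.7% of all genes, and 0 on the higher side against 0.714%. With pairs there were 3 on the lower side (ALG2, ALG14 and ALG5) against 6.92%, and 0 on the higher side against 2.64%. In 0 of 10 genes did the miR-143 arrays all lie below the mock arrays, which 1.24% of all genes did, or all above, which 0.719% did.

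The log2 fold changes ran from −0.20 for ALG2 to 0.06 for ALG3, with a median of −0.049, against −0.0091 over all genes. Of the 10 genes 8 had a negative value, as did 55.6% of all genes. All 10 genes were read on the same arrays, so their signs are not separate observations, and without mock replicate 4 the median was 0.018 with 5 of 10 negative. Without miR-143 replicate 4 it was −0.101 with 10 of 10 negative, and without replicate 4 of both groups −0.031 with 8 of 10 negative. The 95% intervals, each for a single gene and not adjusted for the number of genes, together reached from −0.41 to 0.35. In linear terms the data allow a level in miR-143 cells of 0.75 to 1.01 times that in mock cells for ALG2 and of 0.85 to 1.27 times for ALG3.

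**Figure D1:**
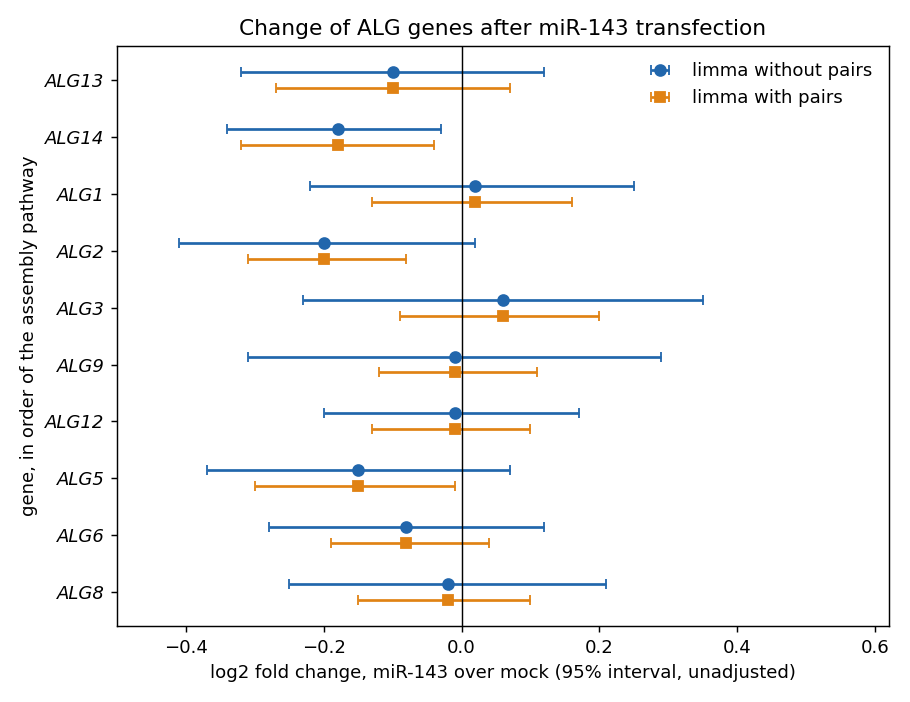
Difference between the miR-143 and mock means on the log2 scale (horizontal axis) for the 10 ALG genes, in order of the assembly pathway from top to bottom, by limma without pairs (blue circles) and with pairs (orange squares), with unadjusted 95% intervals. The values run from −0.20 for ALG2 to 0.06 for ALG3, and without pairs the interval of ALG14 alone lies wholly below 0.

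ALG13 and ALG14 together add the second N-acetylglucosamine, ALG13 as the catalytic subunit and ALG14 as the membrane anchor that holds it at the ER. ALG14 was at 9.46, 9.60, 9.37 and 9.52 on miR-143 arrays 1 to 4, against 9.72, 9.55, 9.70 and 9.71 on mock arrays 1 to 4. The groups overlapped only through mock replicate 2 and miR-143 replicate 2. This mock array lay 0.05 below this miR-143 array and above the other miR-143 arrays, and the other mock arrays lay above all miR-143 arrays. The mean was 9.49 ± 0.10 in miR-143 cells and 9.67 ± 0.08 in mock cells (SD, n = 4 each). The log2 fold change of −0.18 had a standard error of 0.07 and a 95% interval of −0.34 to −0.03 (adjusted p = 1 by limma, and an exact two-sided permutation test of the arrays gave p = 0.0571, where the smallest p possible is 0.0286). This was the lowest unadjusted p of the 10 genes by limma without pairs, at 0.0241.

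The brightest probe set of ALG13 was at 10.16, 10.31, 10.19 and 9.90 on miR-143 arrays 1 to 4, against 10.42, 10.11, 10.22 and 10.21 on mock arrays 1 to 4. The lowest value was that of miR-143 replicate 4 and the highest that of mock replicate 1, and the other arrays of both groups were mixed. The log2 fold change was −0.10 with a 95% interval of −0.32 to 0.12 (exact two-sided permutation p = 0.429). Without replicate 4 of both groups it was −0.03, without miR-143 replicate 4 alone −0.023 and without mock replicate 1 alone −0.044. Without miR-143 replicate 2 alone it was −0.162.

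ALG1 adds the first mannose, on the cytosolic side. Its probe set was at 8.54, 8.38, 8.26 and 8.75 on miR-143 arrays 1 to 4 and at 8.41, 8.39, 8.48 and 8.61 on mock arrays 1 to 4. The miR-143 arrays spread on both sides of the mock arrays, with an SD of 0.21 against 0.10. The log2 fold change was 0.02 with a 95% interval of −0.22 to 0.25, and it was −0.03 without replicate 4 of both groups. The human genome holds near-identical copies of ALG1, so signal from these cannot be told apart from signal of ALG1, and a further probe set shared with an antisense gene was left out.

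ALG2 adds the next mannoses on both arms of the branch. It was at 10.71, 10.59, 10.56 and 10.82 on miR-143 arrays 1 to 4, against 10.88, 10.83, 10.66 and 11.08 on mock arrays 1 to 4. Replicate 4 was the highest array in each group and replicate 3 the lowest, and the miR-143 array lay below the mock array of the same number in 4 of 4 cases, by 0.17, 0.25, 0.10 and 0.26. By the brightest probe sets ALG2 was the only ALG gene for which this held. The share of all genes lower in 4 of 4 was not counted, so it cannot be said how unusual this is. For single numbers 51.1% to 59.8% of all genes were lower, and the numbers are not shown to mark pairs. The mean was 10.67 ± 0.12 in miR-143 cells and 10.86 ± 0.17 in mock cells (SD, n = 4 each). The log2 fold change of −0.20 had a standard error of 0.09 without pairs (adjusted p = 1 by limma, exact two-sided permutation p = 0.114) and of 0.05 with pairs (adjusted p = 0.149 by limma). Without replicate 4 of both groups it was −0.17, without mock replicate 4 alone −0.124 and without mock replicate 3 alone −0.262.

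**Figure D2:**
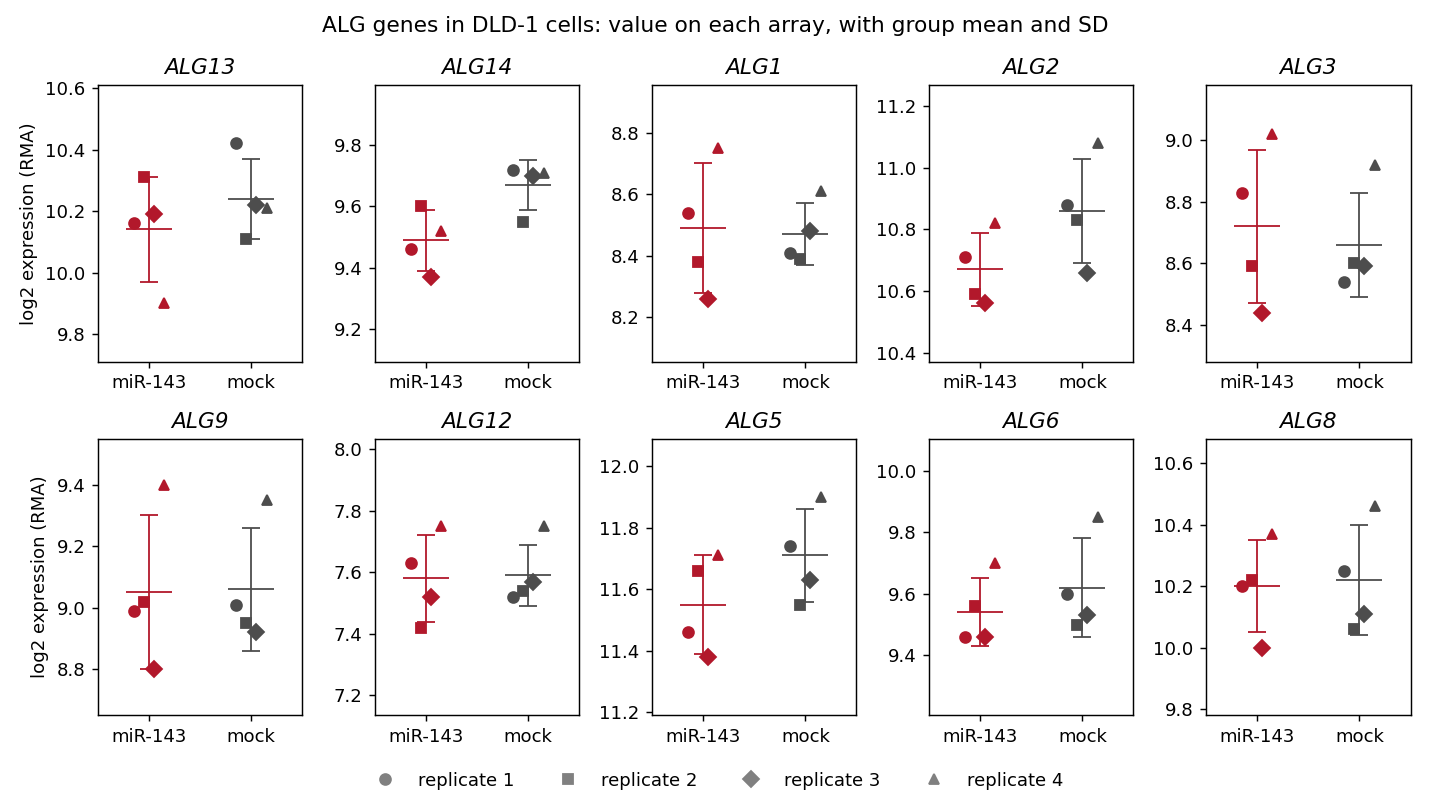
Log2 expression (vertical axis, each panel spanning the same width) of the brightest probe set of each ALG gene on every array, with miR-143 on the left and mock on the right of each panel, marker shapes for the replicate number, horizontal bars for the mean and whiskers for the SD (n = 4). The groups overlap in all 10 genes, and replicate 4 (triangles) is the highest array of each group in 8 of 10.

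ALG3, ALG9 and ALG12 work in the ER lumen with mannose carried by dolichol phosphate. ALG3 adds the sixth mannose, ALG9 the seventh and the ninth, and ALG12 the eighth. These 3 genes had values close to 0 over groups that overlapped widely. ALG3 was at 8.83, 8.59, 8.44 and 9.02 on miR-143 arrays 1 to 4 and at 8.54, 8.60, 8.59 and 8.92 on mock arrays 1 to 4. Its miR-143 arrays held both the lowest and the highest value, and the log2 fold change was 0.06 with a 95% interval of −0.23 to 0.35. ALG9 was at 8.99, 9.02, 8.80 and 9.40 on miR-143 arrays and at 9.01, 8.95, 8.92 and 9.35 on mock arrays, with replicate 4 on top of both groups and replicate 3 at the bottom. Its log2 fold change was −0.01 with a 95% interval of −0.31 to 0.29. ALG12 was at 7.63, 7.42, 7.52 and 7.75 on miR-143 arrays and at 7.52, 7.54, 7.57 and 7.75 on mock arrays, so the highest value was the same in both groups, and its log2 fold change was −0.01 with a 95% interval of −0.20 to 0.17.

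ALG12 was the only ALG gene whose promoter held a full ER stress response element (ERSE), the motif through which ATF6 and XBP1, together with the CCAAT-binding factor NF-Y, raise genes when unfolded protein builds up in the ER. The motif searched was CCAAT, any 9 bases and then CCACG, on both strands of RefSeq promoters (GRCh38.p14) from 250 bases before to 50 bases after each gene start. It was found in 0.0769% of 35116 promoters and in 0.0916% of the 27305 genes they belong to, in 1 of 10 ALG genes over 17 promoters, and in 5 of 10 genes of a list of ER chaperones and folding genes (CANX, CALR, HSPA5, HSP90B1 and XBP1). The ALG12 site lies at chr22:49918554-49918572 on the minus strand, 134 bases before the gene start, and that of HSPA5 (the ER chaperone BiP) at chr9:125241391-125241409 on the minus strand, 66 bases before it. That of XBP1 lies at chr22:28800603-28800621 on the minus strand. The parts that the motif fixes are in capitals.
ALG12: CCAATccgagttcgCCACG
HSPA5: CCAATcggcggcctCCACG
XBP1: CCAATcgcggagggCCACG
The shorter parts were common, with CCAAT in 34.6% of promoters, 39.7% of all genes and 7 of 10 ALG genes, and CCACG in 38.1%, 42.1% and 7 of 10. A match describes the letters only. The 5 folding genes, named here for the motif and outside the rule for naming genes, had log2 fold changes from −0.14 for CANX to 0.02 for XBP1, with −0.12 for CALR, −0.10 for HSPA5 and −0.08 for HSP90B1 (adjusted p = 1 for each by limma without pairs).

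ALG5 makes dolichol phosphate glucose, the donor for the last sugars of the precursor, and ALG6 and ALG8 are related enzymes that use it to add the first and the second glucose. ALG5 was at 11.46, 11.66, 11.38 and 11.71 on miR-143 arrays 1 to 4, against 11.74, 11.55, 11.63 and 11.90 on mock arrays 1 to 4. The miR-143 array was the lower in replicates 1, 3 and 4 and the higher in replicate 2. The log2 fold change of −0.15 had a 95% interval of −0.37 to 0.07 (exact two-sided permutation p = 0.257), and it was −0.14 without replicate 4 of both groups. Without mock replicate 4 alone it was −0.085, without miR-143 replicate 3 alone −0.093 and after cyclic loess between the arrays −0.082. Without miR-143 replicate 4 alone it was −0.204.

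The glucosyltransferases lay closer to 0. ALG6 was at 9.46, 9.56, 9.46 and 9.70 on miR-143 arrays 1 to 4 and at 9.60, 9.50, 9.53 and 9.85 on mock arrays 1 to 4, a log2 fold change of −0.08 with a 95% interval of −0.28 to 0.12. ALG8 was at 10.20, 10.22, 10.00 and 10.37 on miR-143 arrays and at 10.25, 10.06, 10.11 and 10.46 on mock arrays, a log2 fold change of −0.02 with a 95% interval of −0.25 to 0.21. In both genes replicate 4 was the highest array of each group, and the groups overlapped. Without mock replicate 4 the value of ALG6 was 0.00, and without miR-143 replicate 4 it was −0.126.

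The 9 other probe sets of the ALG genes had log2 fold changes from −0.13 to −0.02, and the counts that follow are over all 19. In a fit over all 41091 probe sets of single genes, limma without pairs called 0 of 19 ALG probe sets, against 0.00243% of all probe sets lower and 0% higher. The 1 probe set called, singled out after its value was seen, belongs to the long noncoding RNA gene OIP5-AS1. With pairs it called 0 of 19, against 0.416% lower and 0.11% higher. The log2 fold change was negative in 17 of 19 ALG probe sets, against 55.8% of all probe sets, and the miR-143 arrays all lay below the mock arrays in 0 of 19, against 1.25%, and all above in 0 of 19, against 0.781%. At an unadjusted p under 0.05 limma without pairs had 1 of 19 lower (1.86% of all probe sets) and 0 higher (0.713%), and with pairs 3 lower (6.49%) and 0 higher (2.35%). Those lower were the brightest probe sets of ALG14 (without and with pairs) and of ALG2 and ALG5 (with pairs). Without replicate 4 of both groups limma called 0 of 19, against 0.0779% lower and 0.0462% higher after adjustment. Of the 19 probe sets 14 belong to the 5 genes with more than 1, and probe sets of the same gene are not independent. ALG13 had 5, from −0.10 to −0.02, and ALG5 had 3, from −0.15 to −0.06. For ALG14 the dimmer probe set gave −0.10 beside −0.18 for the brighter, and for ALG2 it gave −0.07 beside −0.20. For ALG9 the dimmer gave −0.10 with a 95% interval of −0.25 to 0.05, beside −0.01. The dimmer probe sets of ALG2 and ALG14 had means of 7.15 and 7.32 in miR-143 cells and 7.22 and 7.42 in mock cells, near the array medians of 7.15 to 7.24. The dimmer ALG5 probe sets had 7.40 and 6.64 in miR-143 cells and 7.53 and 6.71 in mock cells, and the dimmest of ALG13 had 7.15 in miR-143 cells and 7.22 in mock cells. The part of these low levels in the values was not tested. The ALG3 probe set, 1 of ALG9 and 2 of ALG13 have names ending in _s_at, which marks probes shared by several transcripts.

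**Figure D3:**
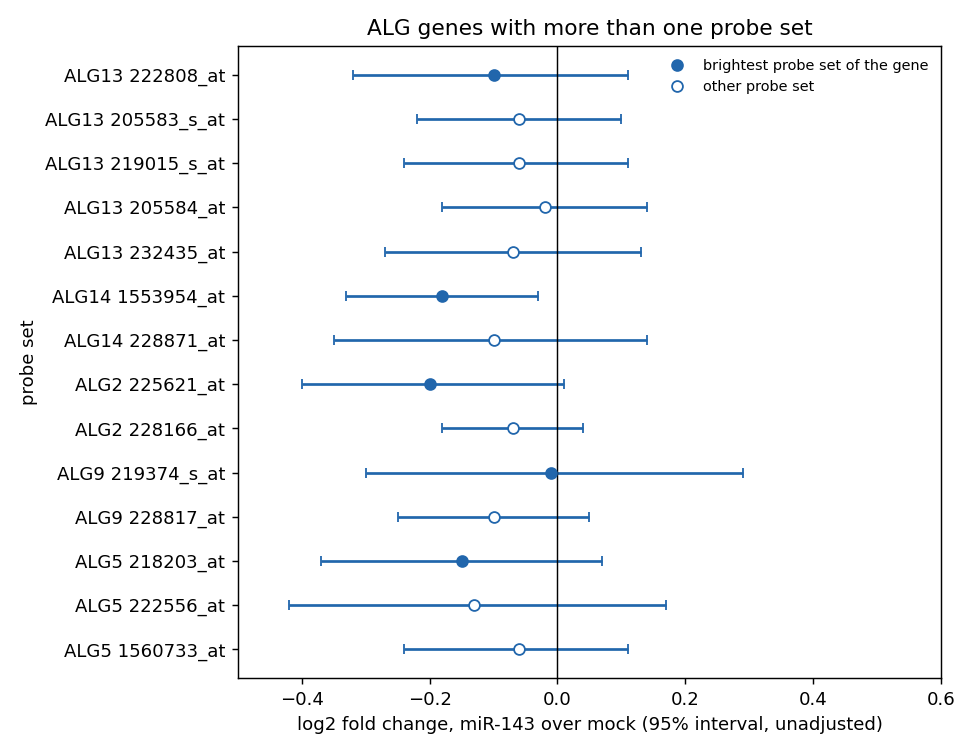
Difference between the miR-143 and mock means on the log2 scale (horizontal axis) for the 14 probe sets of the 5 ALG genes with more than 1, from the fit over all probe sets, with filled circles for the brightest probe set of a gene, open circles for the others and bars for unadjusted 95% intervals. All 14 values are negative, from −0.20 to −0.01, and 13 of the intervals include 0.

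Replicate 4 was the high array for the brightest probe set of most ALG genes. Over all probe sets its arrays had more widely spread values, with an SD of 1.491 (miR-143) and 1.513 (mock). The other arrays had an SD of 1.336 to 1.405. Replicate 4 lay above the mean of replicates 1 to 3 in 9 of 10 ALG genes in miR-143 cells and in 9 of 10 in mock cells, with ALG13 as the exception in both. The median of this difference was 0.22 in miR-143 cells and 0.28 in mock cells, against 0.03 and 0.05 over all genes, whose signed values largely cancel. The median size without regard to sign was 0.23 in miR-143 cells and 0.28 in mock cells, against 0.16 and 0.17 over all genes. The difference was largest for ALG9, at 0.46 in miR-143 cells and 0.39 in mock cells, while ALG13 had −0.32 in miR-143 cells and −0.04 in mock cells. ALG14 had 0.04 and 0.05. Among dim probe sets, that of ALG14 had −0.39 in miR-143 cells and −0.19 in mock cells, and the dimmest of ALG13 −0.30 and −0.23. The dimmest of ALG5 had −0.26 and −0.06, its other dim probe set −0.20 and 0.06, and that of ALG2 0.00 and −0.01. The part of the wider spread of replicate 4 in these differences was not tested. These are differences within a group, and their part in the comparison of groups was not tested. Without replicate 4 of both groups, and so with fewer arrays, the median over the 10 genes was −0.031, against −0.0143 over all genes. There 8 of 10 were negative and 0 of 10 were called by limma without pairs, when 0.152% of all genes were called lower and 0.0658% higher.

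**Figure D4:**
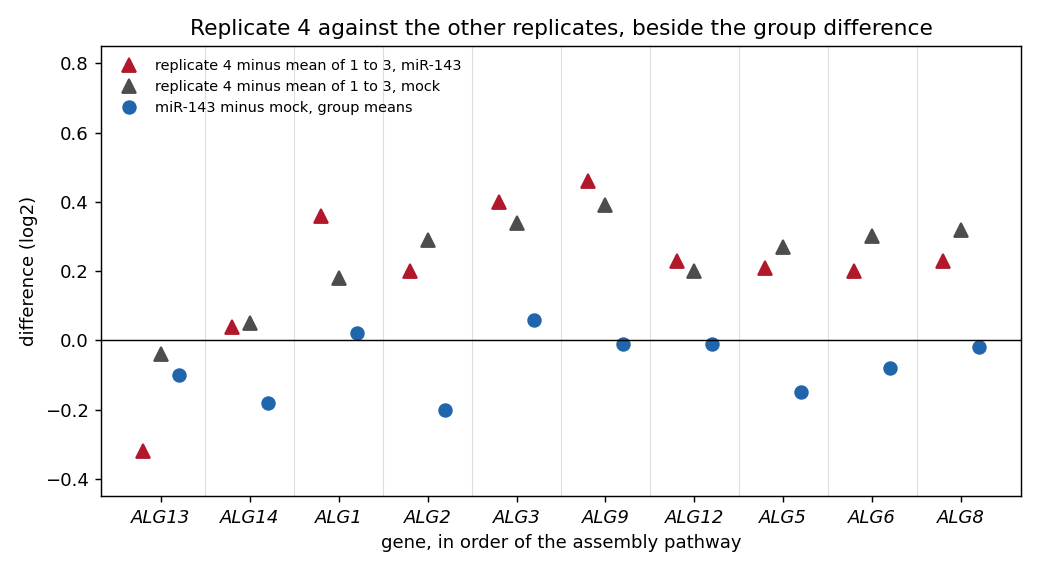
Differences on the log2 scale (vertical axis) for each ALG gene (horizontal axis), as triangles for replicate 4 minus the mean of replicates 1 to 3 (red for miR-143, grey for mock) and as blue circles for the miR-143 mean minus the mock mean. Replicate 4 lies above its group in 9 of 10 genes, by up to 0.46 in miR-143 cells and 0.39 in mock cells, while the difference between groups runs from −0.20 to 0.06.

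Replicate 3 was the lowest miR-143 array for 8 of 10 genes, and replicate 2 the lowest mock array for 6 of 10. Such counts, and that of replicate 4 as the highest array, were not made over all genes. They are therefore not shown to be particular to the ALG genes. The miR-143 array lay below the mock array of the same number in 7 of 10 genes for number 1, in 4 for number 2, in 10 for number 3 and in 6 for number 4. Over all genes the shares were 51.5%, 52.3%, 59.8% and 51.1% for numbers 1 to 4, so number 3 had the highest share there too. When each gene was centred on its mean over the 8 arrays, the mean profile of the 10 genes was −0.03, −0.04, −0.18 and 0.12 on miR-143 arrays 1 to 4 and 0.03, −0.07, −0.04 and 0.21 on mock arrays 1 to 4. ALG6 and ALG8 followed this profile most closely, with root mean square differences of 0.043 and 0.048 over the 8 arrays, and ALG13 least, with 0.195. Each ALG gene is part of the mean it is set against, so these values cannot be compared with those of other genes. Among all other genes the profiles nearest to the ALG mean were those of PUM3 (0.017), GSTO2 (0.018) and FRMD7 (0.019), and the median gene had 0.134. The likeness describes these 8 arrays, on which replicate 4 stood apart.

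The other genes of the pathway were described from 6 lists, of which 49 of 56 genes had a probe set of their own. Limma called 0 of 49 without pairs (0% of all genes lower and 0% higher) and 0 of 49 with pairs (0.623% and 0.167%), with a lowest adjusted p of 0.133 with pairs for GFPT1. A negative log2 fold change was found for 38 of 49, against 55.6% of all genes, on the same arrays as the ALG genes. At an unadjusted p under 0.05 limma without pairs had 1 of 49 lower, ALG10, against 1.7% of all genes, and 0 higher, against 0.714%. With pairs those lower were GFPT1, MOGS, HERPUD1, NUS1, CANX, ALG10 and DHDDS, against 6.92% of all genes. DNAJB9 alone was higher with pairs, against 2.64%. ALG10 adds the last glucose, and it was at 8.36, 8.31, 8.20 and 8.11 on miR-143 arrays 1 to 4 and at 8.46, 8.32, 8.38 and 8.56 on mock arrays 1 to 4. The groups overlapped only through mock replicate 2 and miR-143 replicate 1. The log2 fold change was −0.19 with a 95% interval of −0.36 to −0.01 (exact two-sided permutation p = 0.0571). Without replicate 4 of both groups it was −0.10, and without miR-143 replicate 1 alone −0.225. ALG10B is a near-identical copy of ALG10, and probe sets annotated to both were left out, and signal of the copy cannot be told apart from that of ALG10.

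Among the other assembly genes, 6 of 6 measured were negative, with a median of −0.115. DPM1, the catalytic subunit that makes dolichol phosphate mannose, had −0.13 and its partner DPM2 −0.13, but DPM1 had −0.031 without replicate 4 of both groups, and DPM2 −0.045 without miR-143 replicate 3. DPM1 reached −0.191 without mock replicate 2, and DPM2 −0.191 without miR-143 replicate 1. In the dolichol supply 4 of 4 were negative, with a median of −0.09, and NUS1 and DHDDS, the subunits of the enzyme that makes the dolichol chain, had −0.14 each, while the phosphatase DOLPP1 had −0.04. Without mock replicate 4 NUS1 had −0.056 and DHDDS −0.039, and without miR-143 replicate 4 they had −0.21 and −0.24. Of 7 genes that make sugar donors 3 were negative and 4 positive, with a median of 0.041, which was −0.01 without replicate 4 of both groups. GFPT1, which starts the path to N-acetylglucosamine, had −0.20 with a 95% interval of −0.39 to 0.00 (−0.066 as the mean of all its probe sets), UGP2, which makes UDP-glucose, −0.09, and the phosphomannomutase PMM1 0.12, which was 0.04 without replicate 4 of both groups. None of these values passed limma without pairs or with pairs.

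The oligosaccharyltransferase, which transfers the finished precursor to protein, had 12 of 12 genes negative (55.6% of all genes), read on the same arrays, with a median of −0.058 and values from −0.15 for RPN2 to −0.01. RPN2 had −0.015 without mock replicate 4, −0.019 without miR-143 replicate 3 and −0.321 without miR-143 replicate 4. TMEM258 had −0.13, with −0.055 without mock replicate 3 and −0.209 without miR-143 replicate 4. MAGT1, which acts as an oxidoreductase in the complex, had −0.10, with −0.001 without mock replicate 4 and −0.159 without mock replicate 2. Among the glucosidases and ER mannosidases, which trim the transferred glycan, 5 of 9 were negative, with a median of −0.003, which was 0.009 without replicate 4 of both groups. MOGS, the glucosidase that removes the outermost glucose, had −0.25 with a 95% interval of −0.57 to 0.07. Without miR-143 replicate 4 it was −0.398, and without miR-143 replicate 3 −0.175. GANAB had 0.09 (−0.012 without miR-143 replicate 4 and 0.176 without mock replicate 4), and UGGT1, which senses misfolded glycoproteins, 0.05. Of the lectin chaperones and folding genes 8 of 11 were negative, with a median of −0.085. DNAJB9, an ER co-chaperone raised in ER stress, had 0.15 with a 95% interval of −0.02 to 0.33, and HERPUD1 and DDIT3, which ER stress also raises, had −0.15 and −0.10 (−0.089 for HERPUD1 without mock replicate 4 and −0.061 for DDIT3 without replicate 4 of both groups). HERPUD1 reached −0.202 without miR-143 replicate 4, and DDIT3 −0.134 without mock replicate 2. Limma called 0 of these 32 genes without pairs or with pairs.

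**Figure D5:**
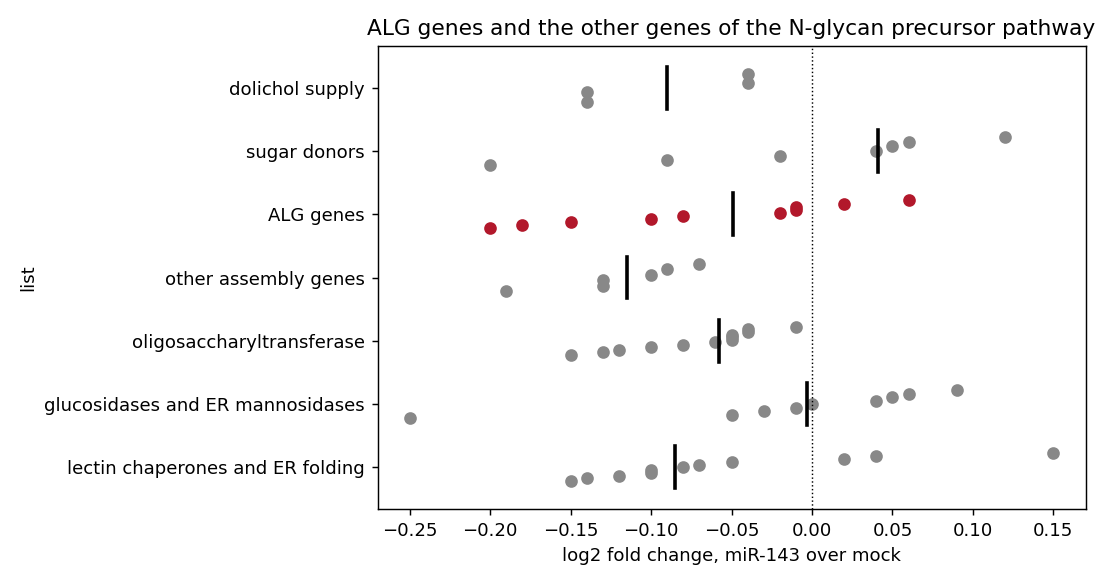
Difference between the miR-143 and mock means on the log2 scale (horizontal axis) for the ALG genes (red) and 6 lists of other pathway genes (grey), a point per gene, with black bars at the medians. The median is −0.049 for the ALG genes and runs from −0.115 for the other assembly genes to 0.041 for the sugar donors.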

How the data were processed

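Each of 8 cultures was read on its own array, and the deposited file holds log2 values, for which the authors used affy and RMA per the labels (versions and settings are not given in the sources used here). They were used as deposited. An array has no depth, so the number of arrays and the level over background limit the precision. The labels mark no batch.

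Symbols came from the platform annotation and were updated by Entrez identifier or older symbol. Of 54675 probe sets 41091 had a single gene, 1801 several and 11721 none, and 62 were controls. The brightest probe set over the 8 arrays stood for a gene. Groups were compared two-sided by lmFit and eBayes of limma 3.58.1 (R 4.3.3) over all 19752 genes and over all 41091 probe sets, adjusted by Benjamini and Hochberg, with 0.05 as threshold. The main comparison had no block, since the methods name limma and no block. Exact permutation tests used all 70 splits of the 8 arrays. Python 3.11.15 made the tables. The fits were tested on simulated data.

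The labels number replicates 1 to 4 in both groups. Deviations of same-numbered arrays correlated at 0.109, 0.166, 0.576 and 0.808 over genes, above the limit of 0.1, but at 0.079, 0.108, 0.558 and 0.772 over probe sets, where the limit is not met. Arrays of different number correlated as highly outside replicate 4, with 0.538 over genes for miR-143 replicate 2 and mock replicate 1, 0.489 for 3 and 1 and 0.25 for 1 and 3, so for numbers 1 and 2 the highest correlation was with another number. The pairs follow the replicate numbers of the labels, which do not say that a number marks a pair, and values with pairs are an alternative. No pair of arrays held identical values.

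The members and lists were chosen with earlier results of these data known. The text names all 10 ALG genes, the 3 genes of lowest p in each list of pathway genes, HK2, and the 3 genes nearest to the mean ALG profile. Outside this rule, KRT8, VIL1 and OIP5-AS1 were named after their values were seen, and 5 folding genes for a promoter motif. The methods call the replicates biological. Alternatives were the pairs, each array or pair left out, array weights, cyclic loess, dim or low-variance (SD up to 0.25) probe sets left out, the mean of a gene's probe sets, and replicate 4 of both groups left out, the last chosen after seeing the data. Probe sets of several genes were left out. Sequences are from RefSeq (GRCh38.p14).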

Additional observations from a re-analysis of the deposited data

Results flagged for a closer look

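In 3 of 40 groups of 4 arrays (the 19 ALG probe sets and HK2, in both groups) a single array lay far from the other 3, by a gap to its neighbour that was above Dixon's 95% critical value as a share of the group's range (0.848 to 0.877). About 1 in 20 groups is picked out by chance. The dimmest probe set of ALG13 was at 6.92 on miR-143 replicate 4, against 7.21 to 7.25 on the other miR-143 arrays. The brighter probe set of ALG14 was at 9.55 on mock replicate 2, against 9.70 to 9.72 on the other mock arrays. Without this array the groups of ALG14 would not overlap, and the same holds without miR-143 replicate 2 (9.60). The share of all genes that would separate with an array left out was not counted. ALG3 was at 8.92 on mock replicate 4, against 8.54 to 8.60 on the other mock arrays.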

How the results depend on the processing

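Limma without pairs called 0 of 10 ALG genes, 0 of 19 ALG probe sets and 0 of 49 other pathway genes, and under every alternative that gave a value these counts were 0 too, including the replicate block. Over all genes the count was 0 without pairs and with any array left out, 156 with the replicate block, 73, 79, 42 and 58 with the replicate block and pair 1, 2, 3 or 4 left out, 43 without replicate 4 of both groups and without a block (chosen after seeing the data), 56 with array weights and 53 after cyclic loess. Over all probe sets it was 1, against 216 with the replicate block, 157, 136, 40 and 68 with pair 1, 2, 3 or 4 left out of it, 51 without replicate 4 of both groups, 54 with array weights, 60 after cyclic loess and 0 with low-variance probe sets left out. It ranged from 0 to 1 with single arrays left out, and was 0 without miR-143 replicate 1, 2 or 3 or mock replicate 1 or 3. Filtering on an SD above 0.25 left 1236 genes and no ALG probe set, so it gave no ALG value. Among values of single genes and probe sets under the alternatives, 637 kept their direction and their side of the threshold, 36 changed sign and 2 passed it.

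The sign changes were of genes near 0. With single arrays left out, ALG1 ranged from −0.074 to 0.089, ALG3 from −0.042 to 0.149, ALG9 from −0.123 to 0.09, ALG12 from −0.072 to 0.038 and ALG8 from −0.08 to 0.059. The dimmer ALG13 probe sets ranged from −0.082 to 0.009 and from −0.126 to 0.007, the dimmest of ALG5 from −0.121 to 0, UGP2 from −0.17 to 0.028 and GANAB from −0.012 to 0.176. With the replicate block and a pair left out, ALG1 had −0.025 (pair 1) and −0.029 (pair 4), ALG3 −0.019 (pair 1), ALG9 0.033 (pair 3), ALG12 0.021 (pair 2), ALG8 0.007 (pair 3) and 0 (pair 4), and a dimmer ALG13 probe set 0.006 (pair 3). Without replicate 4 of both groups ALG1 had −0.029 and ALG8 0. With array weights ALG1 had −0.002 and ALG8 0.014, after cyclic loess ALG9 had 0.027 and ALG8 0.028, and with the mean of all probe sets UGGT1 had −0.015. The median over the ALG genes ranged from −0.101 without miR-143 replicate 4, when 10 of 10 were negative, to 0.018 without mock replicate 4, when 5 of 10 were. It was −0.035 with array weights, −0.02 after cyclic loess (0.0075 over all genes) and −0.059 with the mean of all probe sets. HK2 passed the test with the replicate block (−0.362) and with it and pair 4 left out (−0.399, adjusted p = 0.0224 by limma), and did not with pair 1, 2 or 3 left out. The causes were not tested. Background itself was not measured, so the limit it sets on dim probe sets is unknown.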
